A study of Mus musculus with 51 samples.

Results

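The libraries described here are those of midbrain dopaminergic (mDA) neurons from PRC2 mutant mice, compared between 8 and 4 months of age. They were chosen by their labels alone, as every library marked mutant and mDA in any sequencing set, and number 18 of the 51 libraries of the series: 8 at 8 months and 10 at 4 months. The neurons came from the adult midbrain of the strain labelled DatCreEed, were sorted by fluorescence and were turned into cDNA with Smart-seq2, a protocol made for very small amounts of RNA. Mice of both ages carried the mutation, so the contrast is one of age within mutants, and 17 wt libraries of the same strain (9 at 4 months and 8 at 8 months) give the difference between ages without it. The strain name joins Dat, the common name of the dopamine transporter gene Slc6a3, with Cre and Eed. No source used here states the exact alleles, the place of the Cre insertion or the age at which Eed is lost. Each library carries its own animal number.

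Polycomb repressive complex 2 (PRC2) is a histone methyltransferase, and its core subunits include Eed, Suz12 and Ezh1 or Ezh2. The methyl mark that it lays down on histone tails is a hallmark of developmental genes that a cell keeps silent, with the HOX clusters as the textbook case, and Eed reads the mark as well as helping to write it. Midbrain dopaminergic neurons make dopamine with the enzymes Th and Ddc, load it into vesicles with Slc18a2 and take it back up with Slc6a3. A set of transcription factors, among them En1, Nr4a2 and Pitx3, is needed throughout life to keep these genes on.

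The 4-month libraries were not alike. Of the 10, the 6 from females (4 of set1 and 2 of set2) held 1654667 to 3017630 counts each and the 4 from males (2 of set2 and 2 of set3) held 4094640 to 4587312. The 8 libraries at 8 months (3 females and 1 male of set1, 1 female and 3 males of set2) held 4312167 to 11896342. On the first principal component of the 18 libraries, which carried 24.5% of the variance, the 4-month females lay at 34.5 to 76, apart from the 4-month males (-54.4 to -7.1) and from all 8-month libraries (-50.7 to -1.2). The mCherry reporter row was at 0 to 7.25 CPM (counts scaled to a common library size of 1e+06) in the 4-month females, 8.72 to 17.8 in the 4-month males and 5.59 to 22 at 8 months. Sex, depth and reporter level therefore move together within the 4-month group, and their part in the results was not tested. For that reason the comparison was also made without the 4-month set1 libraries, which leaves 6 libraries of that age, and in males only, and these values stand beside the main results. At 8 months 3 male set2 libraries (D161, D170 and D176) stood apart in markers of blood vessels, described with the other cell types; they are 3 of the 4 males of that age. Eed itself was at 14.3 to 40.3 CPM (median 19.4) at 4 months and at 9.01 to 37 CPM (median 21.8) at 8 months, with overlapping ranges, and did not differ (log2 fold change -0.08, SE 0.26, adjusted p = 0.912). Reads counted over all exons of Eed do not single out the deleted part, so this level is no test of the genotype labels.

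Across all genes, 13966 were tested with edgeR's quasi-likelihood test with sequencing set and sex as terms, and a gene is called at a Benjamini-Hochberg adjusted p under 0.05. Set3 holds only 4-month libraries, so with the set term its 2 libraries inform the variance but not the age effect itself. At 8 months 234 genes were higher (1.68% of those tested) and 157 were lower (1.12%), or 391 in all (2.8%); 2361 had an unadjusted p under 0.05. The median log2 fold change over all tested genes was 0.006. Without the 4-month set1 libraries (8 against 6 libraries, sex as the only term) 273 genes were called (1.92%), with 1.35% of the genes tested higher and 0.571% lower. That fit shares 14 of the 18 libraries with the first. Of the 234 genes called higher in all libraries 116 were called again, and of the 157 called lower, 154 of them testable there, 56 were. In that fit set1 is present only at 8 months and set3 only at 4 months, so set and age are partly confounded. With the set term kept, 160 genes were higher and 67 lower, but age is then contrasted only within set2, 4 libraries against 4. In males only, with 8 of the 18 libraries, 201 of 232 had a positive and 132 of 150 a negative sign, and 74 and 37 were called again. Among males set1 is present only at 8 months (C42) and set3 only at 4 months (C269 and C270). With the set term, each age effect in males only therefore rests on D161, D170 and D176 against C213 and C214, all of set2. Within set2 alone, 4 libraries against 4, 96 were higher (0.652%) and 26 lower (0.176%). The choice of libraries moved the counts in both directions: 1320 higher (9.82%) and 1207 lower (8.98%) in females only (18.8% in all), 400 (2.89%) and 337 (2.43%) in males only (5.32% in all), and 1071 (7.32%) and 651 (4.45%) without D161, D170 and D176. Without all 6 of the 4-month females 330 genes were called (2.19%), 227 higher and 103 lower. Single libraries moved them too: without D175 111 genes were higher and 70 lower, without D265 153 and 96, without D276 152 and 88, without D282 140 and 81 (all at 8 months), and without C213 (4 months) 502 and 283. Without the 4-month libraries D192 or D237 the lower genes numbered 103 and 104. The split between directions also depended on the scaling, with 602 higher and 84 lower under scaling to the library total alone, which shifts the median of all genes to 0.166, and with 413 higher and 403 lower by DESeq2. The libraries are bulk samples of sorted neurons, so fewer cells of a type and less RNA per cell cannot be told apart.

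The HOX genes, which encode the homeodomain factors that set position along the body axis and which adult midbrain neurons keep off, had far more RNA at 8 months. Summed over all 39 HOX genes, the level was 11.7 to 76.3 CPM (median 28.0) in the 4-month mutants and 243 to 770 CPM (median 474) in the 8-month mutants. The groups did not overlap, and the lowest 8-month library was D176. In wt the same sum was 5.26 to 14.6 CPM at 4 months and 5.69 to 49.02 CPM at 8 months. All 4 clusters were higher. The Hoxd genes went from 0.974 to 14.2 CPM at 4 months to 100.2 to 325 CPM at 8 months, and the Hoxc genes from 1.96 to 16.0 to 49.8 to 190.2 CPM. The Hoxa genes went from 4.98 to 36.7 to 58.3 to 160.2 CPM, and the Hoxb genes from 0.435 to 15.2 to 33.5 to 115 CPM. In none of the clusters did a 4-month library reach the lowest 8-month one. The 4-month set1 females held the highest sums of their age, 33.5 to 76.3 CPM, so the gap is narrower with these libraries than without them.

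**Figure D1:**
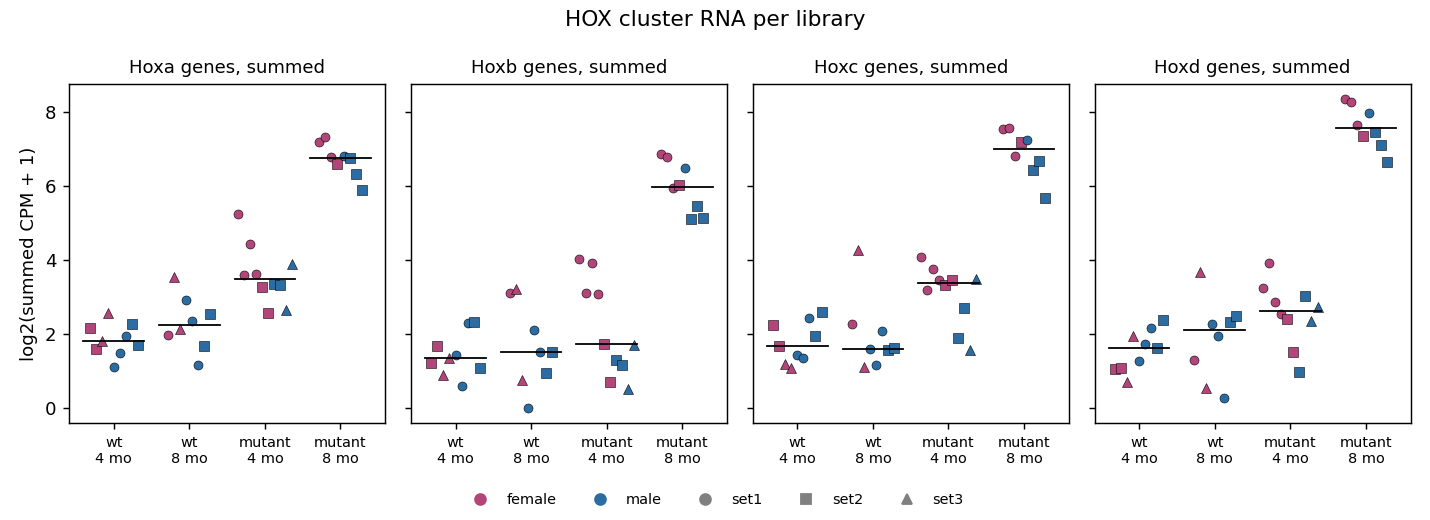
Summed CPM of the genes of each HOX cluster in every mDA library, on a log2(CPM + 1) scale, by genotype and age; color gives sex, marker shape the sequencing set, and the bar is the group median. Every 8-month mutant library lies above every 4-month mutant library in all 4 panels, and the wt libraries of both ages lie near the 4-month mutants or below them.

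Hoxd11, a posterior HOX factor, was at 0 to 0.507 CPM (median 0) at 4 months, where 10 libraries held 5 counts in all, and at 22.0 to 53.2 CPM (median 37.3) at 8 months, where 8 libraries held 2163. The ratio of counts per library total, pooled over the libraries of each age, was 228.5. Its counting interval was 97.8 to 704.5 (95%, counting error only). Every 8-month library was far above every 4-month library. Hoxd10 was at 0 to 3.14 CPM (median 0.461) at 4 months and at 33.4 to 106 CPM (median 61.8) at 8 months, with 22 and 3489 counts and a ratio of 83.8 (55.3 to 133.9). Its gene overlaps that of Hoxd11 in the annotation (chr2:74684273-74695106 against chr2:74679558-74687016, GRCm38.p6), so reads may be shared between them. The ratio was 60.8 (37.3 to 106.6) for Hoxd3 and 23.3 (17.5 to 31.8) for Hoxd4, again with no overlap between the ages. Of the 39 HOX genes 22 had enough counts to be tested, and 0 would have passed the filter in the 4-month libraries alone. A gene that enters only through its 8-month level has to differ, so neither a count over these genes nor a p for one of them is given. Haglr, a non-coding RNA of the Hoxd cluster, was at 0 to 1.24 CPM (median 0.275) at 4 months and at 3.96 to 21.7 CPM (median 12.04) at 8 months. Hoxa11os, an antisense RNA at Hoxa11, held 10 counts over the 4-month and 1444 over the 8-month libraries, a ratio of 76.3 (41.4 to 159.4). No source used here says whether counting used strand, so reads of an antisense RNA and of its partner gene cannot be told apart.

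The stretches of 250 bases ahead of an annotated start of Hoxd10 and Gad1, which rose, and of Th and Slc18a2, which fell, are shown because vertebrate PRC2 is best known from promoters rich in the dinucleotide CG. They are from the RefSeq promoter table for GRCm38.p6, 5′ to 3′ on the gene's strand, with each CG in capitals. The Hoxd10 window lies inside the gene span given above, so it is not ahead of the outermost start of that gene.
Hoxd10, chr2:74691641-74691890, plus strand: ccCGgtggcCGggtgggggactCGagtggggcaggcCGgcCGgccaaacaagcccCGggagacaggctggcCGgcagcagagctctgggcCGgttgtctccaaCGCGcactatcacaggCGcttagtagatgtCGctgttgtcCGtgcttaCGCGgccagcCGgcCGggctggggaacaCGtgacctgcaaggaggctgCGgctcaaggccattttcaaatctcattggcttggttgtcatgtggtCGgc
Gad1, chr2:70561879-70562128, plus strand: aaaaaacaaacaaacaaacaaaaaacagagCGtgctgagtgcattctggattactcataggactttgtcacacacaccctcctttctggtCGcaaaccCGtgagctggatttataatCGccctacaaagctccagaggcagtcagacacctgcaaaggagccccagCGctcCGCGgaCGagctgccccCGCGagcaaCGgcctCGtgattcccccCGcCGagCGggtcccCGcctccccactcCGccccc
Th, chr7:142899996-142900245, minus strand: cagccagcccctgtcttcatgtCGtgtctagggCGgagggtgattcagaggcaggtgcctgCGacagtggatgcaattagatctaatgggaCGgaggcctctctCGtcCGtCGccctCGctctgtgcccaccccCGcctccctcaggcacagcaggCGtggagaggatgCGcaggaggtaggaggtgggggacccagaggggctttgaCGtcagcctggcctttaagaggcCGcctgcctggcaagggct
Slc18a2, chr19:59260628-59260877, plus strand: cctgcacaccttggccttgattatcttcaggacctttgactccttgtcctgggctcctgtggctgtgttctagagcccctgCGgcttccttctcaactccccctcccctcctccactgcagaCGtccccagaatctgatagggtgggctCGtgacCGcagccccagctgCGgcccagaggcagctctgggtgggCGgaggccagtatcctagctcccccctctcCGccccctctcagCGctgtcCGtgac
The sequences hold 20, 17, 13 and 9 CG in that order, counted on the printed strand (CG reads the same on the other strand), against a median of 6 (quartiles 2 and 16) over the 27025 promoters of the table. Over the tested genes with a promoter in the table, which are 74.4% of those tested, the median was 16 (quartiles 9 and 22), so 2 of the 4 sequences lie above it and 2 below. At least 10 CG were held by 38.5% of all promoters in the table and by 74.1% of those of tested genes. These letters describe the windows of 4 picked genes and are not evidence of binding. So few genes cannot show whether genes that rose and genes that fell differ in CG. Of the called genes 66.2% (higher) and 77.7% (lower) had a promoter in the table, which is too few for a comparison of composition, so that comparison is void.

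Other developmental regulators also had more RNA at 8 months in sum. Not every member rose: the ratio of pooled counts per library total was 0.486 for Pou3f1, 0.54 for Uncx, 0.70 for Foxa1 and 0.82 for Neurod6. It was 0.073 for Neurog3, which held only 29 and 4 counts. Summed over 88 homeobox genes outside the HOX clusters, the level was 194 to 414 CPM (median 268) at 4 months and 598 to 872 CPM (median 757) at 8 months, with no overlap. Summed over 100 developmental factors of other families (T-box, forkhead, paired box, GATA and others) it was 183 to 390 CPM (median 245) and 575 to 809 CPM (median 671), again with no overlap. In wt these sums were 86.5 to 163 and 124 to 220 CPM at 4 months and 75.5 to 192.2 and 156 to 359 CPM at 8 months. So the 4-month mutants were above every 4-month wt library for the homeobox list, and the 8-month mutants were above all other groups for both lists. Few of the tested members, 3 of 48 and 5 of 54, would have passed the filter in the 4-month libraries alone, so their calls are not counted here. Of the genes described below, Pitx1, Nkx2-3, Hlx, Pax1, Foxf1, Tbx3, Vax2os, Six3os1, Cdkn2b, Slc6a5 and Gata3 also pass it only through their 8-month level, and Postn, Vwce, Cyp26b1 and Anxa1 only through their 4-month level, so their fold changes and calls are a description. Enam and Derl3, with 29 and 23 counts over all 8-month libraries, likewise enter through their 4-month level. Klhl30, Itga8 and Tmem207, with 70, 105 and 67 counts there, enter mainly through that level too, so their calls are also a description. No adjusted p under the threshold is given for the age difference of these genes in mutants.

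Pax6, a paired box factor of eye, forebrain and pancreas, was well expressed at both ages. It was at 5.44 to 20.8 CPM (median 14.6) at 4 months and at 55.4 to 114 CPM (median 82.6) at 8 months, and rose by 2.49 (SE 0.19, adjusted p = 1.76e-09). The ages did not overlap, and the value was 2.85 without the 4-month set1 libraries and 2.71 in males only. Pitx1, a hindlimb and pituitary homeobox factor, rose by 2.72 from a median of 3.63 to 20.9 CPM. Nkx2-3, Hlx, Pax1 (a factor of vertebrae and thymus), Foxf1 (a mesoderm forkhead factor) and Tbx3 (a T-box factor of limb and heart) rose by 5.26, 2.99, 5.91, 3.29 and 2.69. Each of these 7 factors was higher in every 8-month library than in any 4-month library. They were named for their change or p in this same comparison, so that separation is a description only. Pax6 was called without the 4-month set1 libraries and in males only. The others enter only through their 8-month level, so such calls are not counted for them. The RNA named Vax2os, antisense to the eye gene Vax2, was at 0 to 4.06 CPM (median 0.941) at 4 months and at 73.5 to 362 CPM (median 168) at 8 months. It rose by 6.83 (SE 0.44), by 8.25 in females only and by 5.15 in males only, and these 2 differed (adjusted p = 0.00604 for the difference). Without the 4-month set1 libraries the value of Vax2os was 6.47. Six3os1, antisense to the forebrain gene Six3, rose by 3.06, with 3.10 without the 4-month set1 libraries and 4.87 in males only.

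Of 13 tested PRC2 subunits and histone demethylases 0 were called in either direction, beside 2.8% of all genes, with a median of -0.08. Of 21 tested PRC1 subunits 1 was called higher (1.68% of all genes were) and 0 lower (1.12%). That was Pcgf1, with a log2 fold change of 1.19 (adjusted p = 0.0184). Its ranges overlapped (9.12 to 54.7 CPM at 4 months and 40.9 to 97.9 CPM at 8 months), and it was not called without the 4-month set1 libraries (0.96, adjusted p = 0.0571) or in males only (0.17, adjusted p = 0.833). Among the cell cycle inhibitors known as Polycomb targets, Cdkn2b was at 0 to 2.53 CPM (median 0.728) at 4 months and at 4.51 to 21.1 CPM (median 11.2) at 8 months. It rose by 3.42 (SE 0.66), was higher in every 8-month library, and missed the threshold in males only (3.35, adjusted p = 0.0651). Cdkn2a had too few counts to be tested, 11 over the 4-month and 168 over the 8-month libraries, with CPM of 0 to 2.0 and 0.158 to 6.05. Cdkn1a was at a median of 6.94 CPM at 4 months and 5.18 CPM at 8 months and was not called (0.06, adjusted p = 0.963).

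Of the genes that define the dopaminergic phenotype, the synthetic enzyme Th and the vesicular and plasma membrane transporters fell between the ages, while Ddc was not called. Th was at 1035 to 3045 CPM (median 1632) at 4 months and at 599 to 884 CPM (median 728) at 8 months, with no overlap. The log2 fold change of Th was -1.32 (SE 0.13, adjusted p = 4.03e-07), a 2.5-fold drop. Slc18a2, the vesicular monoamine transporter, was at 1136 to 2213 CPM (median 1983) and at 653 to 851 CPM (median 723), again with no overlap, and fell by 1.25 (SE 0.13, adjusted p = 8.68e-07). Slc6a3 was at 1223 to 3613 CPM (median 2584) at 4 months and at 889.7 to 1548 CPM (median 1052) at 8 months and fell by 1.27 (SE 0.14, adjusted p = 1.67e-06). Its ages overlapped through 1 library of 4-month set1 (D226), and did not overlap without that set. The 4-month females were at 1223 to 2689 CPM of Slc6a3, below the 4-month males at 3154 to 3613 CPM, while for Th and Slc18a2 the sexes overlapped at that age. Without the 4-month set1 libraries the values were -1.46 for Th, -1.52 for Slc18a2 and -1.46 for Slc6a3, and males only gave -1.74, -1.61 and -1.56. All of these values were called. Ddc, the decarboxylase that follows Th, was at 399 to 1097 CPM (median 599) and at 464 to 681 CPM (median 526) and was not called (-0.30, SE 0.14, adjusted p = 0.284). In males only its value was -0.76 (adjusted p = 0.0116) and in females only -0.04 (adjusted p = 0.872), and the difference between the sexes was called (-0.80, adjusted p = 0.01). In the whole list of 16 dopamine synthesis and handling genes 0 were higher and 3 lower (1.12% of all genes were), with a median of -0.10; in males only 6 were lower (2.43% were).

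**Figure D2:**
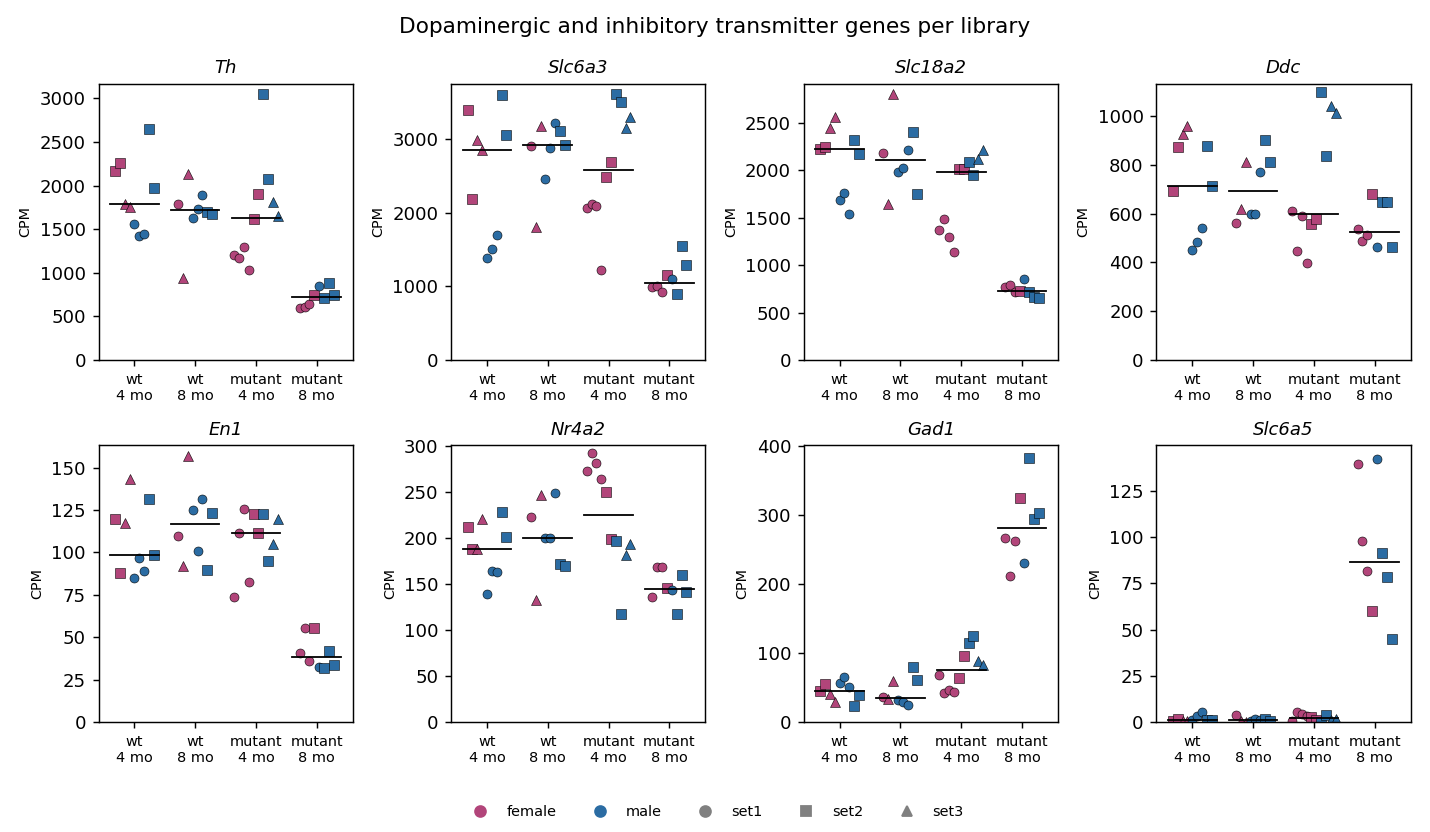
CPM of 4 dopamine genes, 2 dopaminergic transcription factors and 2 inhibitory transmitter genes in every mDA library, by genotype and age; color gives sex, marker shape the sequencing set, and the bar is the group median. Th and Slc18a2 lie lower, and Gad1 and Slc6a5 higher, in each 8-month mutant library than in any 4-month mutant library, while Ddc overlaps.

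Several transcription factors of these neurons fell as well. En1, an engrailed homeobox factor needed for dopaminergic neuron survival, was at 73.8 to 126 CPM (median 111) at 4 months and at 31.7 to 55.4 CPM (median 38.3) at 8 months. The ages did not overlap, and it fell by 1.38 (SE 0.16, adjusted p = 3.64e-06), by 1.55 without the 4-month set1 libraries and by 1.64 in males only. Ebf3 fell by 1.06 (adjusted p = 0.000991), with overlapping ranges, and was called without the 4-month set1 libraries (-0.97) and in males only (-1.02). Bnc2, named after its value was seen, fell by 1.07 (adjusted p = 0.0127) and missed the threshold without the 4-month set1 libraries (-1.08, adjusted p = 0.0536). Nr4a2, a nuclear receptor required for Th and Slc6a3 expression, was at 118 to 292 CPM (median 225) and at 118 to 169 CPM (median 145). It fell by 0.66 (SE 0.15, adjusted p = 0.0111), but with -0.42 (adjusted p = 0.177) without the 4-month set1 libraries, -0.20 (adjusted p = 0.637) in males only and -0.65 (adjusted p = 0.0523) without D175 it was not called. Pitx3 was at 4.56 to 18.7 CPM (median 10.5) and at 2.51 to 8.30 CPM (median 4.40) and was not called (-1.18, adjusted p = 0.107). Of 14 tested factors 4 were lower (1.12% of all genes were) and 0 higher (1.68%), all 14 had a negative sign, and the median was -0.61 against 0.006 over all genes, of which 7068 of 13966 had a positive sign; Lmx1b had too few counts.

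Of 13 tested markers of dopaminergic neurons of the substantia nigra 7 were lower and 0 higher at 8 months, beside 1.12% and 1.68% of all genes, and their median was -0.97. Atp2a3, a calcium pump of the endoplasmic reticulum, was at 20.4 to 67.8 CPM (median 44.96) at 4 months and at 11.6 to 30.6 CPM (median 20.6) at 8 months and fell by 1.32 (SE 0.22, adjusted p = 0.000659). Ndnf, a secreted neurotrophic factor, was at 11.8 to 55.8 CPM (median 34.7) and at 10.5 to 16.1 CPM (median 14.1) and fell by 1.32 (SE 0.26, adjusted p = 0.00308). In both genes 1 of the 4-month libraries, D192 of set1, lay within the 8-month range and the other 9 lay above it. Both were called without the 4-month set1 libraries (-1.28 and -1.51) and in males only (-1.12 and -1.87). Anxa1, an annexin that marks a ventral subset of nigral neurons, was at 10.96 to 85.3 CPM (median 25.9) and at 0.228 to 16.99 CPM (median 4.87) and fell by 2.53 (SE 0.50). Its value without the 4-month set1 libraries was -3.05 but missed the threshold (adjusted p = 0.0602), and in males only it was -3.49. Satb1, a chromatin organizer, fell by 0.81 (adjusted p = 0.0032) but was at -0.21 (adjusted p = 0.585) in males only. Vcan, a matrix proteoglycan that oligodendrocyte precursors also express, had a log2 fold change of -1.13 (adjusted p = 0.0497), and its call was lost on leaving out any of 14 libraries in turn (-1.21 to -0.91), all but D161, D176, C213 and C214. The other called genes, named after their values were seen, were Igf1 (-0.97) and Kcns3 (-0.80), both called without the 4-month set1 libraries (-1.21 and -1.13) and in males only (-1.34 and -1.60). Of 16 tested markers of ventral tegmental neurons 0 were called, and their median was 0.06. In females only 4 of 16 were higher (9.82% of all genes were) and in males only 4 of 15 tested were lower (2.43%). The difference, males minus females, was called lower in 7 of 16 genes (8.86% of all genes were).

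Several genes of inhibitory transmission rose. Gad1, which makes GABA from glutamate, was at 42.1 to 124 CPM (median 75.3) at 4 months and at 211 to 382.4 CPM (median 281) at 8 months. It rose by 1.86 (SE 0.16, adjusted p = 1.76e-08), with no overlap, and was called in females only (2.11), in males only (1.42) and without the 4-month set1 libraries (1.61). Slc6a5, the glycine transporter of glycinergic nerve endings, was at 0 to 5.58 CPM (median 2.12) at 4 months, 71 counts in 10 libraries, and at 45.1 to 143 CPM (median 86.7) at 8 months, 5130 counts in 8 libraries. It rose by 4.93 (SE 0.37), and in wt it stayed between 0 and 5.45 CPM at both ages. Slc32a1, the vesicular transporter shared by GABA and glycine, was at 8.11 to 32.9 CPM (median 22.6) and at 43.9 to 80.0 CPM (median 61.9) and rose by 1.43 (SE 0.23, adjusted p = 0.000339). It was not called in males only (1.06, adjusted p = 0.099). Gad2, the other GABA-making enzyme, named after its value was seen, rose by 0.75 (adjusted p = 0.0141) but was not called without the 4-month set1 libraries (0.52, adjusted p = 0.233) or in males only (0.35, adjusted p = 0.412). Th was thus lower and Gad1 higher in the same 8 libraries.

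Genes that define serotonergic neurons, the sister type of monoamine neuron, were low at both ages. Tph2 was at 0 to 13.9 CPM (median 3.98) at 4 months and at 1.68 to 10.5 CPM (median 5.37) at 8 months (-0.36, adjusted p = 0.806). Slc6a4 (-1.29, adjusted p = 0.42) and Fev (0.66, adjusted p = 0.614) were not called either. The called members were Gata2 (2.07, adjusted p = 0.000368) and Gata3 (1.76), zinc finger factors that also act in GABAergic neuron development. Gata2 was at 3.41 to 13.5 CPM (median 5.99) at 4 months and at 20.5 to 34.6 CPM (median 25.2) at 8 months, with no overlap, and was called without the 4-month set1 libraries (2.21) and in males only (2.94). Gata3 overlapped, was not called in males only (2.01, adjusted p = 0.116), and lost its call (1.60 to 1.78) without D265, D276, D282, D186, D192 or D226. Wnt5a, a ligand of the WNT family, was at 27.9 to 80.4 CPM (median 43.7) and at 93.0 to 156 CPM (median 125) and rose by 1.35 (SE 0.19, adjusted p = 9.01e-05). Its ages did not overlap, and it was called without the 4-month set1 libraries (1.19); in males only it was at 0.68 (adjusted p = 0.12), against 1.74 in females only, and this difference was called (-1.10, adjusted p = 0.0132).

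The largest decreases among the named genes were in genes of modest level with varied functions. Postn, an extracellular matrix protein, was at 4.9 to 47.1 CPM (median 14.8) at 4 months and at 0 to 2.86 CPM (median 0.572) at 8 months, with no overlap, and fell by 4.07 (SE 0.70). Without the 4-month set1 libraries it was at -3.997, and in males only at -2.88 (adjusted p = 0.101). Enam, a protein of the enamel matrix, fell by 3.86 with no overlap but missed the threshold without the 4-month set1 libraries (-2.97, adjusted p = 0.0565). Vwce and Cyp26b1 (the enzyme that clears retinoic acid) fell by 2.58 and 2.56. Cyp26b1 went from a median of 10.4 to 1.31 CPM and Vwce from 20.2 to 2.36 CPM. Neither was called in males only. Itga8 (an integrin chain), Klhl30, Derl3 (a factor of endoplasmic reticulum protein disposal) and Tmem207 fell by 2.6996, 3.16, 3.12 and 2.81. They enter mainly through their 4-month level, and their calls also hung on single libraries. That of Derl3 was lost without D175 (-2.77), that of Itga8 without D282, D175 or C213 (-2.68 to -2.24), that of Tmem207 without D276, D282, D175, D186, D192 or C214 (-2.92 to -2.54), and that of Klhl30 without D265, D276, D282, D161, D170 or D175 (-3.88 to -2.72). Fhl3, a LIM domain protein, fell by 2.29 (adjusted p = 0.000297) with all libraries, while without the 4-month set1 libraries it was at -0.51 (adjusted p = 0.804): its 4-month range was 0.676 to 52.3 CPM with them and 0.676 to 16.7 CPM without.

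Among synaptic and excitability genes, 2 of 49 tested transmitter and peptide receptors were higher and 2 lower, beside 1.68% and 1.12% of all genes. Of 39 presynaptic release genes 1 was higher and 2 lower, and of 43 ion channel genes 0 were higher and 1 lower; with numbers this small these shares are not read as different from the background. Oprk1, the kappa opioid receptor gene, was at 102 to 240.7 CPM (median 179) at 4 months and at 56.4 to 133 CPM (median 82.6) at 8 months and fell by 1.10 (SE 0.18, adjusted p = 0.000467). Ntsr1, the neurotensin receptor gene, was at 54.0 to 194 CPM (median 141) and at 58.3 to 84.5 CPM (median 67.3) and fell by 0.99 (SE 0.17, adjusted p = 0.00102). Each gene overlapped between the ages through 1 library of 4-month set1, D226 for Oprk1 and D186 for Ntsr1, and without that set the lowest 4-month values were 153 CPM for Oprk1 and 125 CPM for Ntsr1. Both were called in males only (-1.08 and -1.30). The GABA receptor subunit gene Gabra3 (0.81), the vesicle priming gene Unc13b (-0.99), the active zone gene Erc2 (-0.75), the complexin gene Cplx2 (0.59), the sodium channel gene Scn3a (-0.46) and the axon guidance gene Ntng1 (-0.70) were called with all libraries. In males only their values were 0.41, -0.36, -0.04, 0.04, -0.12 and 0.14, and none was called there. Each also lost its call on leaving out single libraries: Gabra3 without D265 or D175 (0.74 to 0.81), Unc13b without D175 (-0.71), Erc2 without D265, D276, D282 or D175 (-0.76 to -0.65), Cplx2 and Ntng1 without any of 9 libraries (0.52 to 0.58, and -0.70 to -0.62) and Scn3a without any of 13 (-0.48 to -0.39). D265, D276, D282 and D175 were among the libraries for all of the last 3.

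The nuclear genes of the mitochondrial respiratory chain differed between the 4-month female and male mutants. Of 72 tested nuclear genes of oxidative phosphorylation 10 were higher (1.68% of all genes were) and 0 lower (1.12%), with a median of 0.55 and a positive sign in 70. Their summed level was 2971 to 4676 CPM in the 4-month females, 7744 to 10630 CPM in the 4-month males and 5801 to 9259 CPM at 8 months. At 8 months the sexes overlapped, with 5801 to 9104 CPM in females and 6857 to 9259 CPM in males. In wt the level was 6121 to 9122 CPM at 4 months and 4369 to 10260 CPM at 8 months. The 4-month females were below every other mutant library, and the 4-month males overlapped the 8-month range. In females only 57 were higher (9.82% of all genes were) and 0 lower (median 1.02); in males only 0 were higher (2.89% were) and 0 lower (median -0.21). The difference of the age effect between the sexes was called in 52 of 72 genes, against 15.5% of all 13966 genes in either direction. Without the 4-month set1 libraries, which still leaves 2 of the 4-month females, 0 of the 72 were called. Atp5j, Atp5a1 and Ndufv2 had values of 0.83, 0.67 and 0.76 in all libraries, 1.38, 1.06 and 1.13 in females only, and -0.10, -0.01 and 0.11 in males only. Their calls were lost without D175 (0.75, 0.59 and 0.63), and that of Atp5a1 also without D282 (0.59). Over the list, leaving out 1 library gave 0 called members without D175 and 28 without C213, and the number moved by more than 1.5 times also without D265, D276, D282, D161, D186, D187, D192, D237, D238 or C214. Depth and reporter level differ in the same libraries, and their part in this was not tested.

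**Figure D3:**
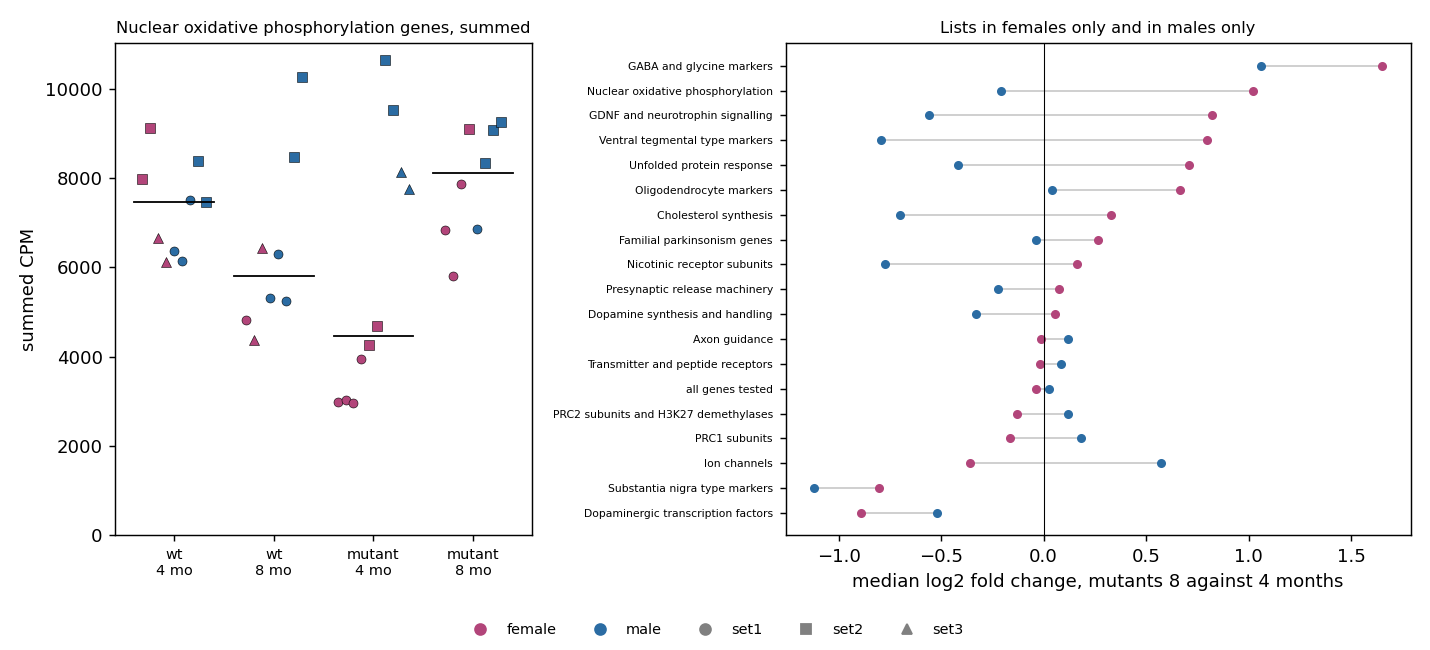
Left, summed CPM of the 73 listed nuclear oxidative phosphorylation genes in every mDA library by genotype and age, with color for sex, marker shape for the sequencing set and the group median as a bar; right, the median log2 fold change of each gene list between 8 and 4 months in female and in male mutants fitted apart, for lists that mostly pass the count filter in the 4-month libraries. The 6 female 4-month mutants lie at 2971 to 4676 CPM, below all other mutant libraries, and the list medians of the sexes lie on opposite sides of 0 for several lists but on the same side for the dopaminergic factors, the substantia nigra markers and the GABA and glycine markers.

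Other lists also differed in count between female and male mutants. Of 43 tested ion channel genes 13 were lower in females only (8.98% of all genes were) and 7 higher in males only (2.89%), and the difference, males minus females, was called higher in 12 (6.62%). Of 21 genes of cholesterol synthesis 0 were called in all libraries and 8 were lower in males only (2.43% of all genes were), with the difference called lower in 9 (8.86%). Of 18 genes of the unfolded protein response 9 of 17 tested were higher in females only (9.82% of all genes were) and 3 lower in males only (2.43%), with the difference called lower in 8 (8.86%). For all 3 lists the 4-month females and males did not overlap in summed level: 5756 to 7271 against 3463 to 5256 CPM for the ion channels, 896 to 1012 against 1785 to 2323 CPM for cholesterol synthesis, and 629 to 951 against 1114 to 2084 CPM for the unfolded protein response.

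Several other single genes were called in females only but not in males only. B2m, the light chain of MHC class I, rose by 1.20 (adjusted p = 0.00621), with 1.72 in females only and 0.50 (adjusted p = 0.293) in males only. The survival gene Bcl2l1 (0.79) and the auxilin gene Dnajc6 (0.52), in which mutations cause early parkinsonism, were called with all libraries but not in males only (0.19 and 0.21). Bcl2l1 lost its call without D265, D282, D175 or D186 (0.68 to 0.77) and Dnajc6 without any of 12 libraries (0.47 to 0.53), all but D161, D170, D176, C42, D192 and C213. Of 15 tested familial parkinsonism genes Dnajc6 was the 1 called, and of 21 tested apoptosis and p53 response genes Bcl2l1 was, beside 1.68% of all genes called higher; nothing is read from 1 gene of a list. Dusp1, a phosphatase induced by activity and stress, went the other way, called in males only but not in females only (0.78, adjusted p = 0.12). It was at 6.52 to 21.0 CPM (median 16.2) at 4 months and at 16.6 to 57.8 CPM (median 33.9) at 8 months, with a log2 fold change of 1.16 (adjusted p = 0.0308) and 1.87 in males only (adjusted p = 0.0233). Its call was lost without D276, D175, D192, D226, D238 or C214 (0.95 to 1.14).

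Markers of other cell types were present at both ages and were higher in some 8-month libraries. Over 15 astrocyte markers the summed level was 409 to 1014 CPM at 4 months and 726 to 3228 CPM at 8 months, with D176 highest, and 3 were called higher (1.68% of all genes were). In males only 7 of the 15 were higher (2.89% were), with a median of 2.12. The 3 called with all libraries were Apoe (1.44, adjusted p = 0.00393, not called without the 4-month set1 libraries at 1.69, adjusted p = 0.107), Slc1a2 (0.61, adjusted p = 0.0304) and Clu (0.80, adjusted p = 0.044). Clu was at -0.09 in males only. The call of Slc1a2 was lost without D265, D282, D186 or C213 (0.48 to 0.63), and that of Clu without any of 13 libraries (0.68 to 0.83), all but D161, D170, C42, C213 and C214. Over 13 endothelial and mural markers the level was 13.5 to 96.1 CPM at 4 months. At 8 months it was 1135, 469 and 1038 CPM in D161, D170 and D176 and at most 35.3 CPM in the other libraries; of 9 tested, 0 were called with all libraries. In males only 7 of 9 were called higher (2.89% of all genes were), with a median of 4.69. These 3 are the only 8-month libraries behind the age effect in males only, since C42 is the only male of set1. Each value given for males only stands beside this difference in vessel and astrocyte markers and cannot be told apart from it. The summed level was 529.8 to 1300 and 528 to 1547 CPM for 15 oligodendrocyte markers, 29.8 to 88.9 and 47.6 to 123 CPM for 14 microglia markers, 64.3 to 126 and 58.7 to 131 CPM for 8 oligodendrocyte precursor markers, 5.60 to 30.9 and 12.3 to 194 CPM for 8 ependymal and choroid markers, and 31.4 to 144 and 89.2 to 154 CPM for 3 glutamate markers. No marker on these lists was at 0 in all libraries of an age. Their part in the results above was not tested. Without D161, D170 and D176, in which the vessel markers were high, Th was at -1.13, Slc18a2 at -1.05, Slc6a3 at -1.14, En1 at -1.28, Gad1 at 2.03 and Pax6 at 2.49, all called, while Slc1a2 was not (0.40, adjusted p = 0.0698).

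In wt neurons of the same strain the 2 ages gave no called gene by the same test. Of 13645 genes tested in the 17 wt libraries 0 were higher (0%) and 0 lower, with 1518 at an unadjusted p under 0.05; DESeq2 called 80 higher and 58 lower. Th was at 1424 to 2643 CPM (median 1784) at 4 months and at 941 to 2137 CPM (median 1715) at 8 months in wt (-0.07, adjusted p = 0.883). Slc18a2 (0.08), Slc6a3 (0.33), En1 (0.14) and Gad1 (0.01) were not called in wt either. The difference between the age effects, mutant minus wt, was tested in a fit of all 35 libraries and shares its mutant libraries with the comparison above. Of 15425 genes 437 had a higher (2.83%) and 284 a lower (1.84%) effect in mutants, or 721 in all (4.67%), with 358 and 360 under RLE scaling and 30 and 46 without the 4-month set1 libraries. For Th the difference was -1.15 (adjusted p = 0.000134), for Slc18a2 -1.27 (adjusted p = 1.39e-06), for Slc6a3 -1.49 (adjusted p = 8.99e-06) and for En1 -1.53 (adjusted p = 2.13e-06). For Gad1 it was 1.91 (adjusted p = 1.74e-05) and for Pax6 3.19 (adjusted p = 5.08e-06). All 6 of these differences were called without the 4-month set1 libraries too, at -1.19, -1.37, -1.33 and -1.55 for the first 4 and at 1.27 and 2.73 for Gad1 and Pax6. Those of Nr4a2 (-0.68, adjusted p = 0.0227) and Anxa1 (-2.63, adjusted p = 0.00818) were not called there (-0.39, adjusted p = 0.398, and -2.76, adjusted p = 0.0863).

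**Figure D4:**
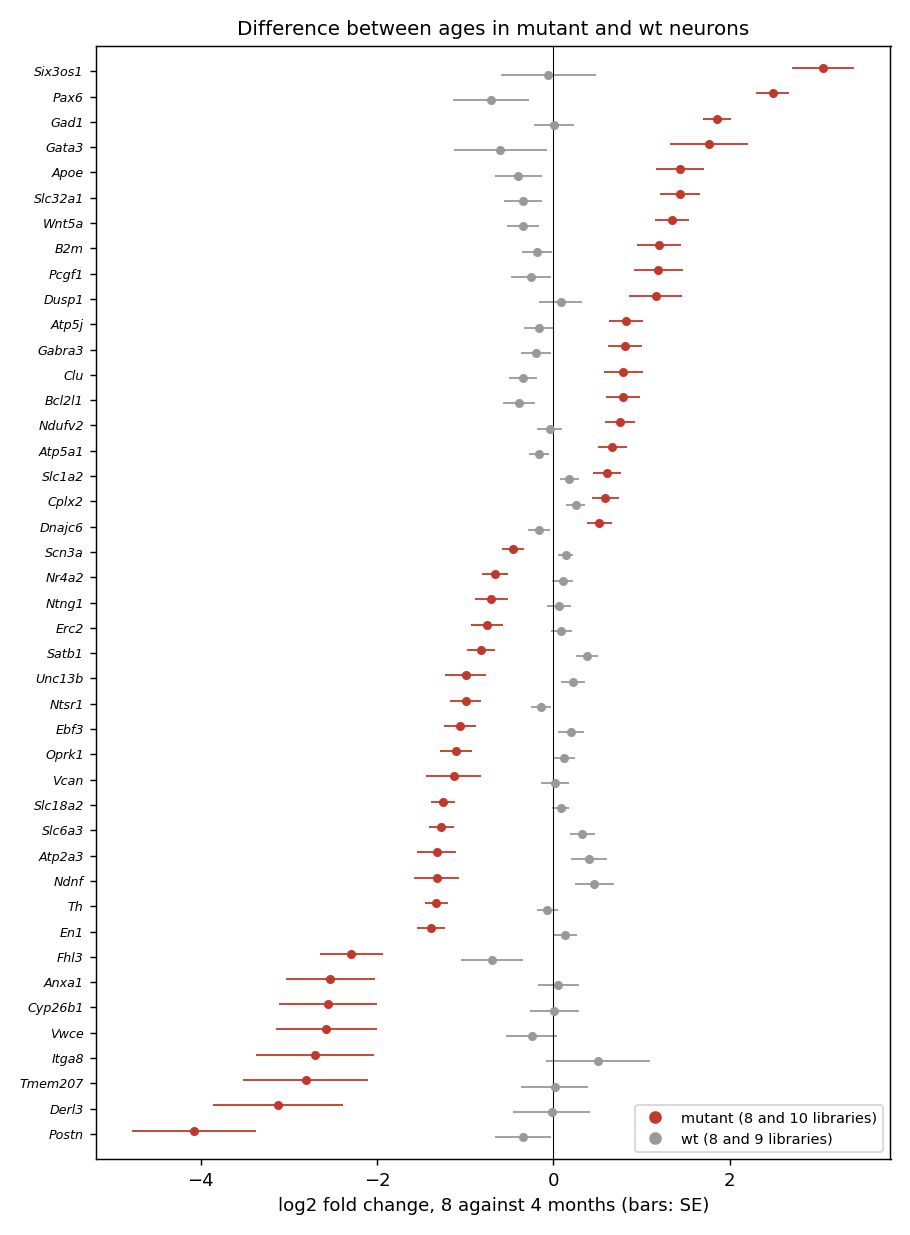
Log2 fold change between 8 and 4 months, with its approximate SE, in mutant and in wt mDA neurons for the named genes that were called in mutants and had enough counts for a test in wt. The wt values lie between -0.70 (Pax6) and 0.51 (Itga8), none of them called, while the mutant values run from -4.07 (Postn) to 3.06 (Six3os1).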

How the data were processed

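RNA of neurons sorted by FACS was amplified with Smart-seq2, per the labels' protocols. The authors' deposited values are whole-number counts per gene for 51 libraries; STAR 2.7.0a and the mouse build mm10 (GRCm38) are named per the submitters' processing notes, and no source used here names the counting tool, its annotation or its strand setting. The table holds 24564 genes, of which 22460 symbols (91.4%) matched RefSeq. A reporter row (at most 0.00294% of a library) was kept out of tests. Every library is a separate animal by its label, no columns were identical, and replicates differed by more than sampling noise (lowest chi-square per degree of freedom 6.97).

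The comparison used edgeR 4.0.16 in R 4.3.3 (TMM scaling, filterByExpr with a minimum count of 10, robust quasi-likelihood test) on the 18 mutant libraries with sequencing set and sex as terms, and Benjamini-Hochberg adjusted p under 0.05 over all genes tested. All adjusted p are from this test unless DESeq2 1.42.0 is named. The biological coefficient of variation was 0.411. Standard errors are approximate, from the fold change and F. CPM were scaled over the 35 mDA libraries. The wt libraries were fitted alike, and the difference of the age effects in all 35. The scripts were tested on simulated data.

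Named genes were Eed, the 10 largest called changes on each side where mean log2 CPM reached 1 (Xist, Y-linked genes and gene models left out), the called members of each of 38 lists with the lowest p, at most 3 a list, and a fixed set of identity and cell cycle genes; others are marked as named after their values were seen. The members and lists were chosen with earlier results of these data known. Of the lists, the 13 mitochondrially encoded genes and 9 of 24 developmental non-coding RNAs are not analysed here. Promoter sequences are RefSeq's for GRCm38.p6. Alternatives were other library choices, terms, scalings, filters, depth and DESeq2.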

Additional observations from a re-analysis of the deposited data

Results flagged for a closer look

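In 212 checks of the named genes and list sums, the most extreme library of an age group lay far from the rest in 10 cases, where chance alone gives about 1 in 20. At 4 months these were Tmem207 at 0.622 CPM and Tph2 at 0 CPM in D238, Slc6a3 at 1223 CPM and Oprk1 at 102.1 CPM in D226, Nr4a2 at 118 CPM in C214, Atp2a3 at 20.4 CPM in D192, Pitx3 at 4.56 CPM in D187, Slc6a4 at 0 CPM in C213, and the sum of the developmental non-coding RNAs at 83.5 CPM in D186. At 8 months it was the sum of the axon guidance genes at 1984 CPM in D282.

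For the named genes, the age effect in mutants minus that in wt, on the log2 scale, was called in 47 cases. It was above 0 for Hoxd11 8.04, Vax2os 5.89, Hoxd10 4.33, Pax1 5.80, Hoxd3 4.91, Nkx2-3 5.16, Haglr 5.70, Slc6a5 5.49, Hoxd4 5.21, Hlx 3.28, Pax6 3.19, Tbx3 2.96, Six3os1 2.87, Pcgf1 1.59, Gad1 1.91, Slc32a1 1.80, Wnt5a 1.79, Gabra3 1.06, Bcl2l1 1.39, Dnajc6 0.63, Ndufv2 0.84, Atp5j 1.02, Atp5a1 0.93, B2m 1.47, Apoe 2.02, Slc1a2 0.58 and Clu 1.30. It was below 0 for Postn -3.64, Derl3 -3.25, Itga8 -3.07, Vwce -2.48, Cyp26b1 -2.46, Anxa1 -2.63, Th -1.15, Slc18a2 -1.27, Slc6a3 -1.49, En1 -1.53, Ebf3 -1.16, Nr4a2 -0.68, Atp2a3 -1.48, Ndnf -1.53, Satb1 -1.13, Scn3a -0.58, Oprk1 -1.19, Ntsr1 -0.74, Unc13b -1.07 and Erc2 -0.90. Without the 4-month set1 libraries many of these were no longer called. The values of the HOX genes, Haglr, Vax2os, Pax1, Nkx2-3, Slc6a5, Hlx, Tbx3 and Six3os1 are a description, since in mutants these genes pass the count filter only through their 8-month level. Those of Postn, Derl3, Itga8, Vwce, Cyp26b1 and Anxa1 are too, since in mutants these enter only or mainly through their 4-month level.

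The age effect in male minus that in female mutants, a test added after the data were seen, was called for 16 named genes. It was above 0 for Six3os1 2.43, Satb1 0.83, Erc2 1.11 and Ntng1 1.10, and below 0 for Vax2os -3.09, Pcgf1 -1.45, Gad1 -0.74, Wnt5a -1.10, Cplx2 -0.97, Bcl2l1 -1.0044, Ndufv2 -1.06, Atp5j -1.56, Atp5a1 -1.13, B2m -1.47, Clu -1.44 and Ddc -0.80. The 4-month females also had the lowest total counts of the mutants, and reporter levels of 0 to 7.25 CPM, and the part of these in the differences was not tested.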

How the results depend on the processing

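In mutants 234 genes were higher and 157 lower; the numbers were 1077 and 762 within set1, 96 and 26 within set2, 1320 and 1207 in females only, 400 and 337 in males only, 602 and 84 with scaling to the library total, 413 and 403 by DESeq2, 121 and 104 at one depth, and 730 and 407 in the fit of 35 libraries. Without a count filter 503 were higher, without the sex term 365 were lower, and without the 4-month set1 libraries 81 (sex term only) or 67 (all terms) were lower. Chosen after seeing the data, leaving out D161, D170 and D176 gave 1071 and 651, and leaving out the 4-month females 103 lower. Leaving out each library in turn gave 111 to 502 higher and 70 to 283 lower. In wt, with 0 called, DESeq2 gave 80 and 58, no filter 1 and 1, and no 4-month set1 libraries 1 higher. For the difference between mutants and wt, DESeq2 gave 559 lower, and no 4-month set1 libraries 30 higher and 46 lower. The cause of these shifts was not tested. Signs reversed for Eed (0.0754 with total scaling, 0.0546 without a filter, 0.0639 at one depth, 0.0484 without D161, D170 and D176), for Tph2 (0.30 without 4-month set1, 0.0046 within set2), in males only for Ntng1 (0.14), Atp5j (-0.10), Atp5a1 (-0.0142) and Clu (-0.0887), and without the 4-month females for Cplx2 (-0.0923), Dnajc6 (-0.0585) and Atp5j (-0.15). Cdkn1a, not called, was at -0.43 without 4-month set1 (sex term only), -0.18 within set1, -0.0487 in females only, -0.31 without the set term, -0.22 without the sex term, -0.30 without terms, -0.0104 at one depth, -0.17 in the fit of 35 libraries, -0.0052 without D161, D170 and D176, -0.66 without the 4-month females, and -0.028 to 0.31 over single libraries left out, with -0.0149 without C213. With RLE scaling 68 of 68 tested named genes kept direction and side of the threshold, and in males only 37 of 64 did. The 4-month females, at 1654667 to 3017630 counts, limit the precision of low genes. No paired analysis was possible because each library carries its own animal number.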
